A study of Drosophila mojavensis with 14 samples.

Results

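The 80 transcripts described here had their highest level in the lower reproductive tract of Drosophila mojavensis females 15 min after copulation, whichever species the male belonged to, and lay lower again at 2 h and 6 h. They were chosen by their measured values. For each transcript and each kind of mating, the mean log2 intensity at 15 min was set against the mean of the virgin, 2 h and 6 h groups. A transcript was kept if that difference was positive and larger in size than the same difference for any other state, in both matings. It was dropped if its level declined in steps from 15 min over 2 h and 6 h to virgin in either mating. The 80 with the largest value of the smaller of the 2 differences were taken. Of 14519 transcripts on the array, 14471 carry a GI number. Of these, 362 had the 15 min state as the one farthest from the others and higher in both matings, 276 of them were not declining in steps, and the 80 are the upper end of those 276.

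Females fell into 7 groups with 2 biological replicates each, which gives 14 arrays in all. Virgin females were compared with females mated to D. mojavensis males (conspecific) or to males of the sister species D. arizonae (heterospecific), with tracts taken 15 min, 2 h or 6 h after copulation. All females came from 1 isofemale line of D. mojavensis from Anza Borrego and the D. arizonae males from 1 isofemale line from Guaymas, so each species is represented by a single line. Flies were virgin when collected and aged 10 to 12 days, and the RNA of a sample came from 20 to 25 tracts together. In the mated groups, vials held 2 males. The virgin arrays served as the unmated state for both matings, so the conspecific and heterospecific values below share them.

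In Drosophila, males transfer sperm together with seminal fluid proteins, many of them made in the accessory gland, and the lower tract of the female, with its bursa and its sperm storage organs, is the first tissue they meet. Seminal proteins are known to change egg laying, sperm storage, feeding and receptivity to remating in D. melanogaster. In D. mojavensis and its relatives the bursa also forms an opaque mass after copulation, the insemination reaction. GI numbers are gene names given to predicted genes of the D. mojavensis genome. No table used here pairs them with a product, a protein or a place in the genome, so no role is given to any member, and the tissue could not be checked against marker genes.

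Levels below are log2 intensities after background correction, quantile normalization and a median polish over a transcript's probes. An intensity of 1 log2 unit more is a doubled signal. The 15 min excess of a transcript is its mean at 15 min minus the mean of the virgin, 2 h and 6 h groups of the same mating. Because the choice of members used this excess, it is given as a description, with the SE of a limma fit over all 14 arrays and with no test. In pooled tissue, a change in the number of cells of a type and a change in RNA per cell cannot be told apart.

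The excess was modest in size. After conspecific mating its median over the 80 members was 0.71 on the log2 scale (1.64-fold), with a range from 0.32 to 1.89. After heterospecific mating the median was 0.55 (1.46-fold), with a range from 0.25 to 1.60. The median over all transcripts was 0.01 and 0.00. An excess above 1 log2 unit was found for 16 members after conspecific and for 6 after heterospecific mating. The median SE of the members' excess was 0.26. Since the members were chosen for a large excess, its ratio to the SE is no measure of support for the peak.

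Taken against each other state, all 80 members were higher at 15 min in both matings. Against virgin the median difference was 0.60 after conspecific and 0.43 after heterospecific mating. Against 2 h it was 0.58 and 0.59, and against 6 h it was 0.90 and 0.66. The 6 h groups were therefore the lowest point of the typical member, below virgin for 71 of 80 members after conspecific mating (median -0.26) and for 70 after heterospecific mating (median -0.26). At 2 h the typical member was back at the virgin level after conspecific mating (median 0.03, with 44 above and 36 below) and slightly under it after heterospecific mating (median -0.15, with 61 below). In 28 members both later times lay below virgin in both matings. The rule dropped transcripts that declined in steps with 6 h still above virgin. That alone raises the share of members with 6 h below virgin. All of these values are limited by the rule and carry no test.

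**Figure D1:**
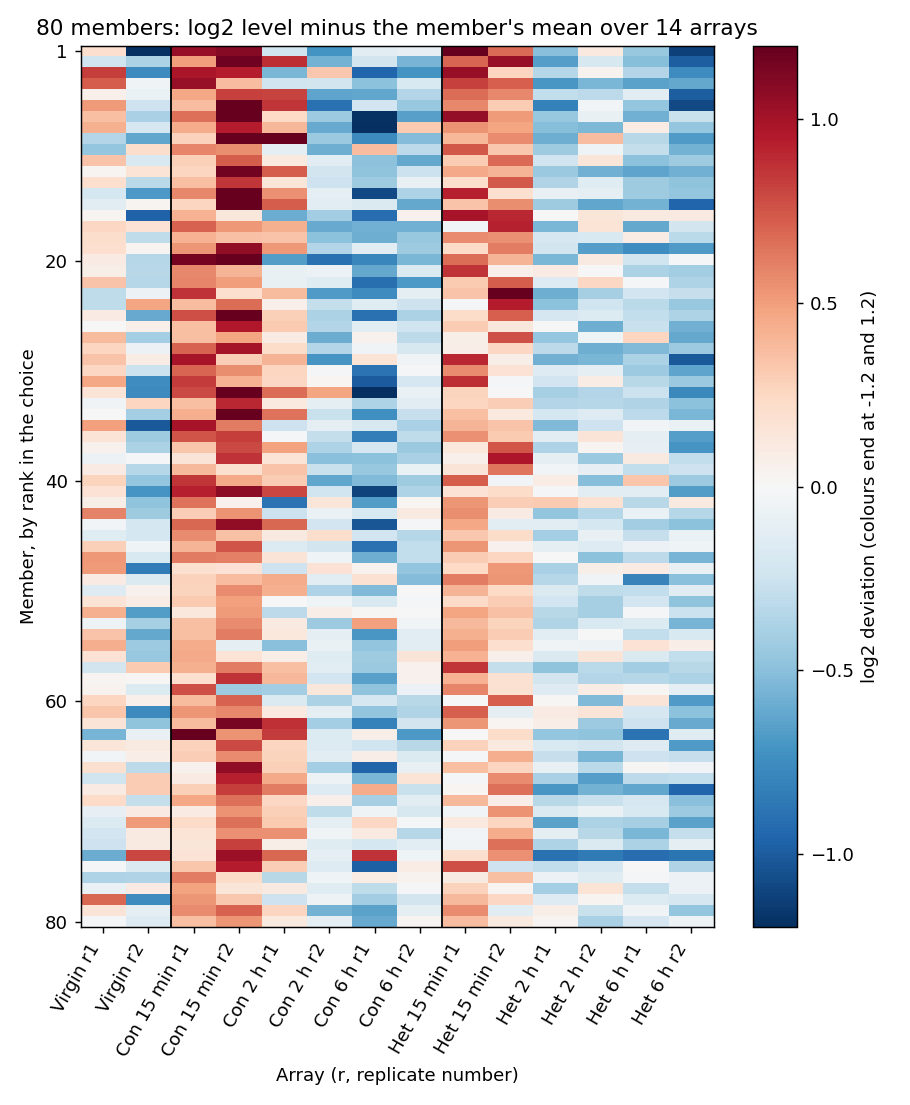
Log2 level of each of the 80 members (rows, in the order of the choice) on each of the 14 arrays (columns, Con conspecific, Het heterospecific, r replicate number), as the deviation from the member's own mean over the arrays. The 4 columns at 15 min are the reddest, conspecific 2 h replicate 1 is red in many rows, and conspecific 6 h replicate 1 and heterospecific 6 h replicate 2 are the bluest.

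The arrays of a group did not always agree. The members' median deviation from their own mean was 0.43 and 0.66 on the conspecific 15 min arrays and 0.39 and 0.31 on the heterospecific ones. It was 0.10 and -0.21 on the virgin arrays. At 2 h after conspecific mating it was 0.25 on replicate 1 and -0.19 on replicate 2, and at 6 h it was -0.48 and -0.21. After heterospecific mating it was -0.28 and -0.19 at 2 h and -0.29 and -0.44 at 6 h. All 4 arrays at 15 min thus lay above all 10 others in this summary, and conspecific 2 h replicate 1 came nearest to them. That array was above its replicate in 66 of 80 members, by a median of 0.48, and above the lower of the conspecific 15 min arrays in 26. Replicate 2 of the same group did so in 4. Virgin replicate 1 lay above the lower conspecific 15 min array in 15 members and above the lower heterospecific one in 35. Among the 10 arrays not taken at 15 min, conspecific 2 h replicate 1 was the highest in 39 members and virgin replicate 1 in 25.

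Measures of array quality moved with these values. Intensity climbed along the transcript on every array. Over the brighter transcripts this slope, in log2 units from the first to the last probe, was 1.31 and 2.21 on the conspecific and 1.32 and 1.34 on the heterospecific 15 min arrays. It was 1.92 on conspecific 2 h replicate 1, 1.26 and 1.65 on the virgin arrays, and 0.81 to 1.11 on the other 7. The 15 min arrays and conspecific 2 h replicate 1 thus had steeper slopes than all other arrays after mating. Virgin replicate 2 had the third steepest slope, and the members were low on it. With the slope as a covariate in the fit, the median excess was 0.55 after conspecific mating, from 0.71, with 79 of 80 members positive, and 0.53 after heterospecific mating, from 0.55, with 80 positive. Virgin replicate 2, conspecific 15 min replicate 2, conspecific 2 h replicate 1 and conspecific 6 h replicate 1 had a raw upper quartile of intensity of 943 to 1413, against 2015 to 2912 on the other 10, and are called the dim arrays. Without these 4 the median excess was 0.56 and 0.50. The members were chosen for this excess on the same arrays, so mostly positive values follow from the choice in each of these fits. The part of array quality in the excess was not tested.

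The file headers carry a date, which falls on 2 days. All heterospecific arrays at 2 h and 6 h bear day 1 and both virgin arrays day 2, so the heterospecific excess over the virgin state mixes the days. Within day 2 the conspecific median excess was 0.75. Within day 1, against the later heterospecific times alone and with replicate 1 of the 15 min group alone, the median difference was 0.67. With both replicates it was 0.64. The choice of members used such differences, so these values are a description only.

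**Figure D2:**
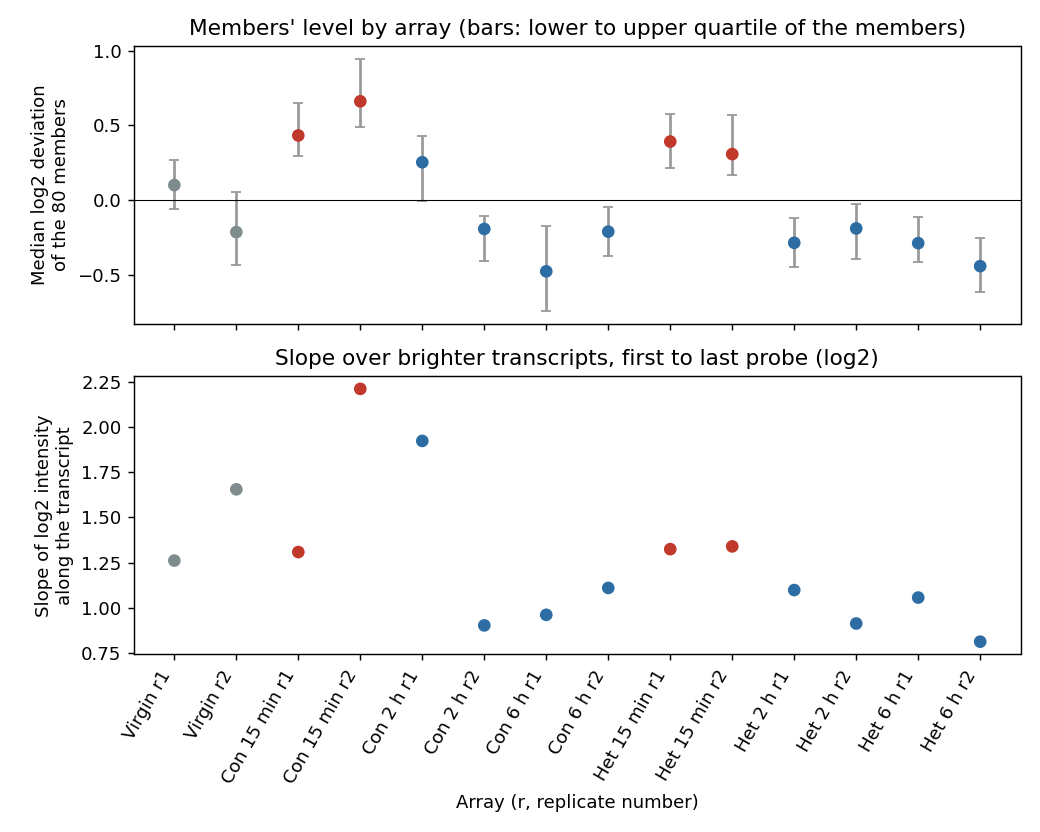
Upper panel, the median over the 80 members of the log2 deviation from each member's mean, by array, with bars from the lower to the upper quartile of the members. Lower panel, the slope of log2 intensity along the transcript on the same arrays (red 15 min, grey virgin, blue later times): conspecific 15 min replicate 2 and conspecific 2 h replicate 1 have the steepest slopes, 2.21 and 1.92.

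Whether a member showed a peak on every array was counted without averaging. In 41 of 80 members (51.2%) both conspecific 15 min arrays lay above all virgin and later conspecific arrays, where 3.96% of all transcripts did. In 34 members (42.5%) both heterospecific 15 min arrays lay above all virgin and later heterospecific ones, against 2.99% of all transcripts. Both held in 18 members, only the conspecific separation in 23, only the heterospecific in 16, and neither in the other 23. All 4 arrays at 15 min were above all 10 others in 12 members, against 0.282% of all transcripts. These 12 were GI11087, GI22260, GI17409, GI15330, GI22594, GI15259, GI16061, GI15376, GI18816, GI10476, GI14311 and GI13615, listed in the order of the choice and, outside the first 8 and the last, named after their values were seen. Since the members were chosen by the same values, these shares only describe how cleanly the chosen transcripts separate, and nothing is read from their excess over all transcripts. The name of a peak after both matings thus holds on single arrays, within each mating, for 18 of 80 members, and for the other members only on group means in 1 or both matings. Without conspecific 2 h replicate 1 the conspecific count was 59 (6.14% of all transcripts), and without virgin replicate 1 it was 49 (6.25%) and the heterospecific count 55 (4.75%). The shares over all transcripts thus went up as well.

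GI11087 led the choice. Its level was 11.98 and 12.02 on the conspecific and 12.40 and 11.62 on the heterospecific 15 min arrays. In virgins it was 11.14 and 9.58. After conspecific mating it lay at 10.70 and 10.22 at 2 h and at 10.81 and 10.84 at 6 h, and after heterospecific mating at 10.43 and 11.05, then 10.48 and 9.81. All 4 arrays at 15 min were above the 10 others. The 2 virgin arrays were far apart, with a mean of 10.36 ± 1.10 (SD, n = 2). The excess was 1.46 after conspecific mating (2.74-fold, SE 0.38) and 1.60 after heterospecific mating (3.02-fold, SE 0.38).

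GI24193, second in the order, was low and even in virgins, at 9.29 and 9.14. It was at 10.03 and 10.69 at 15 min after conspecific and at 10.22 and 10.57 after heterospecific mating, and at 8.54 to 9.33 on all heterospecific arrays at 2 h and 6 h. The heterospecific separation was complete. After conspecific mating 2 h replicate 1 was at 10.41, between the 15 min arrays, while replicate 2 was at 8.96 and the 6 h arrays at 9.30 and 8.97. The excess was 1.02 (SE 0.34) and 1.37 (SE 0.34).

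GI22126 had the opposite weakness. Its conspecific 15 min arrays, at 11.84 and 11.80, lay above all other arrays of that mating and the virgins. In virgins it was at 11.70 and 10.10, so virgin replicate 1 reached above heterospecific 15 min replicate 2 (11.12) and below replicate 1 (11.91). Later levels were 9.91 to 11.19. The excess was 1.26 (SE 0.38) after conspecific and 0.87 (SE 0.38) after heterospecific mating.

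GI23611 was among the brighter members. Virgin arrays stood at 12.99 and 12.23, conspecific 15 min arrays at 13.31 and 12.63, and heterospecific ones at 13.09 and 12.98. At 2 h and 6 h all 8 mated arrays lay between 11.56 and 12.08, below both virgin arrays. The later levels lay farther below the virgin mean than the 15 min levels lay above it, and virgin replicate 1 overlapped the 15 min arrays of both matings. The excess was 0.78 and 1.08 (SE 0.22 for both).

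GI13091 and GI14610 each had 1 conspecific 2 h array at the height of the 15 min group. GI13091 was at 11.53 and 11.39 in virgins, 11.93 and 12.30 at 15 min after conspecific and 12.14 and 12.05 after heterospecific mating, and conspecific 2 h replicate 1 was at 12.28 against 10.84 on replicate 2. GI14610 was at 10.13 and 11.35 on the conspecific and at 10.33 and 10.06 on the heterospecific 15 min arrays, with conspecific 2 h arrays at 10.61 and 8.86. Virgin replicate 1 (10.26) lay between the heterospecific 15 min arrays of GI14610. For GI13091 the heterospecific 15 min arrays were above all virgin and later heterospecific arrays.

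GI22260 and GI17409 had all 4 arrays at 15 min above the 10 others. GI22260 was dim: its 15 min levels were 8.47, 9.04, 8.86 and 8.32, virgin levels 8.17 and 7.42, and its later levels 6.62 to 8.05, and it was above background on only 8 of 14 arrays. Levels not above background are upper bounds, so no size is given for its excess. GI17409 was at 10.71, 11.21, 10.81 and 10.74 at 15 min and at 10.70 and 10.07 in virgins. Virgin replicate 1 and conspecific 2 h replicate 1 (10.66) lay under the lowest 15 min array by less than 0.05. Its conspecific 6 h arrays were far apart, at 8.94 and 10.58.

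**Figure D3:**
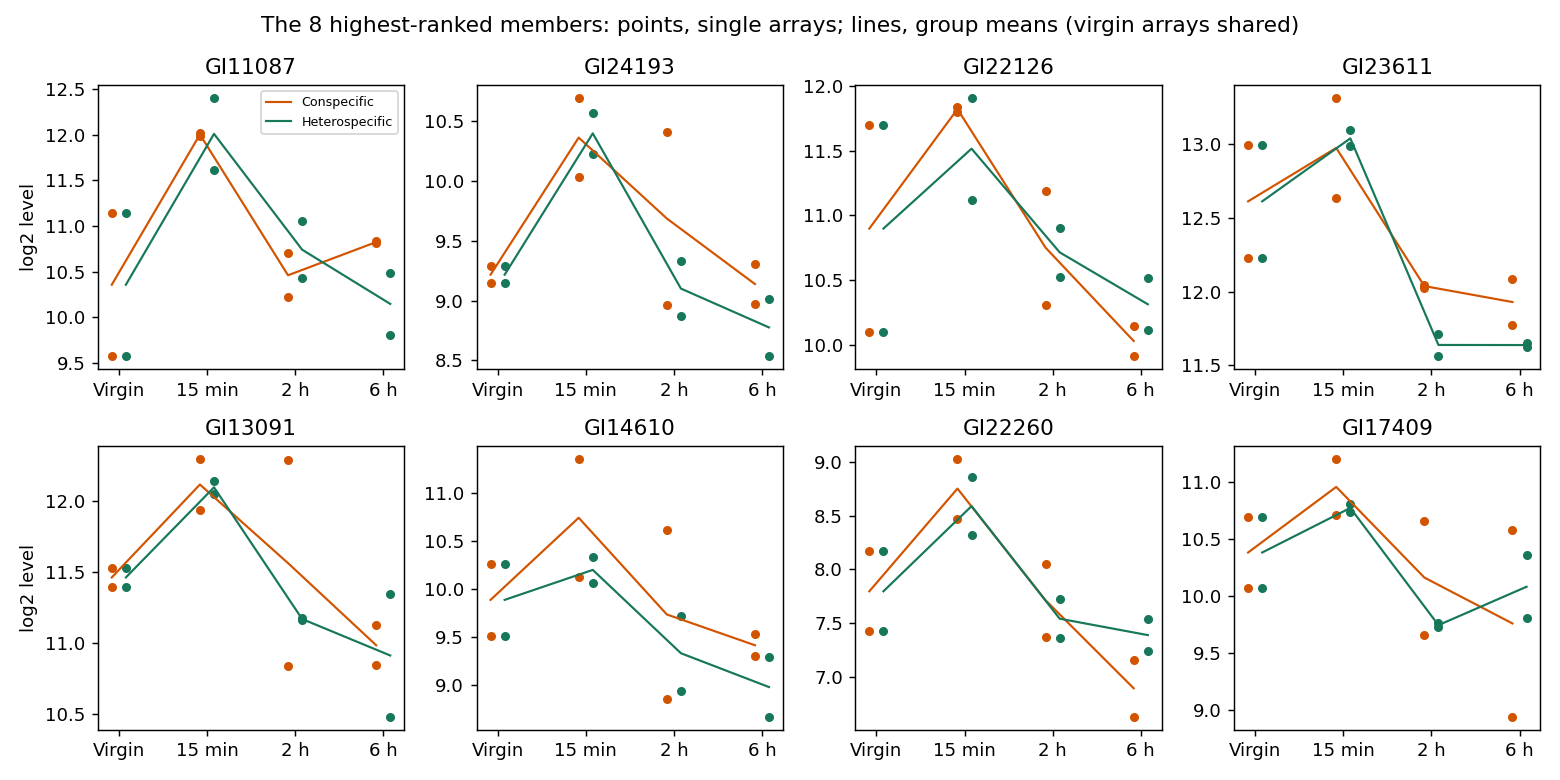
Log2 level of the 8 highest-ranked members by state (virgin, 15 min, 2 h, 6 h), with single arrays as points and group means joined by lines, orange after conspecific and green after heterospecific mating. The virgin arrays are the same in both colours. Group means peak at 15 min in every panel, while single arrays at 2 h (GI24193, GI13091, GI14610) or in virgins (GI22126, GI23611) reach the 15 min level.

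At the lower end, the cut fell in a dense part of the list. The smaller of the 2 differences that ordered the members, taken on log2 intensities with no background correction, ran from 1.27 for GI11087 to 0.328 for GI10354 and GI13615 at ranks 79 and 80. Just outside, GI18307 had 0.325 and GI13231 had 0.322. Its median over the 80 was 0.449. GI10354 was at 12.05 and 12.19 at 15 min after conspecific mating, at 12.05 and 11.36 after heterospecific mating and at 11.64 and 11.36 in virgins. Its heterospecific 15 min arrays thus differed by more than its heterospecific excess of 0.33 (SE 0.26). GI13615 was bright, at 13.28, 13.44, 13.28 and 13.04 at 15 min and at 12.90 and 12.76 in virgins. All 4 of these 15 min arrays lay above the 10 others, the highest of which was conspecific 2 h replicate 1 at 13.03. Its conspecific 6 h arrays, at 12.32 and 12.95, differed by more than its conspecific excess of 0.57 (SE 0.19).

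The same choice was repeated with each array left out in turn. Between 32 and 72 of the 80 members were chosen again, the fewest without virgin replicate 2 and the most without heterospecific 2 h replicate 2. A member was chosen again in a median of 10 of the 14 repeats. GI15259, GI17365, GI11945 and GI18816 were chosen in all 14 and are named for that reason, after their values were seen. GI15259 had the largest conspecific excess of all members, 1.89 (SE 0.21). It was at 9.75 and 10.19 at 15 min after conspecific mating, at 9.28 and 9.01 after heterospecific mating, at 8.70 and 8.26 in virgins and at 7.70 to 8.71 at the later times. GI18816 was even between replicates, at 12.01, 11.79, 11.76 and 11.65 at 15 min, 11.29 and 11.22 in virgins and 11.03 to 11.64 later, with an excess of 0.56 and 0.47 (SE 0.13 for both). In both of these members all 4 arrays at 15 min lay above the 10 others.

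The probes of a transcript were also read one by one. The choice had averaged these same probes, so mostly positive differences follow in large part from it. The counts describe how even the probes were, and nothing is read from them about the peak. Of the members' 396 probes, 378 (95.5%) had a positive 15 min difference in both matings. Every probe did so in 63 of the 80 members, all but 1 probe in 16, and GI19688, named because it was the remaining member, had 2 probes of 5 that did not. Of the 18 probes that did not, 13 were the first probe of their transcript. The members' median difference at the first probe was 0.30 after conspecific and 0.40 after heterospecific mating, and at the fourth it was 0.74 and 0.56. The first probe had a smaller difference than the median of the other probes in 71 of 80 members after conspecific and in 59 after heterospecific mating. Over all transcripts the median difference also climbed along the transcript, from -0.07 at the first to 0.07 at the fifth probe after conspecific and from -0.03 to 0.04 after heterospecific mating. The slope of intensity along the transcript was steeper on the 15 min arrays than on most others, as given above, and first probes were dimmer, with a median log2 intensity of 9.18 in the members against 10.11 at the fourth. The part of either in the members' excess at single probes was not tested. Probes of 1 transcript are read from the same RNA and are no replicates of a mating. On the same scale the 5 probes of GI11087 had differences of 0.74, 1.53, 1.55, 1.45 and 1.08 after conspecific and 0.45, 1.78, 1.60, 1.81 and 1.62 after heterospecific mating, in order along the transcript. The first of these, the lowest in both matings, was also the dimmest. In GI23611 the probes were more even, with 0.63 to 0.90 after conspecific and 0.94 to 1.15 after heterospecific mating. In GI24193 they ran from 0.61 to 1.41 and from 1.06 to 1.34.

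**Figure D4:**
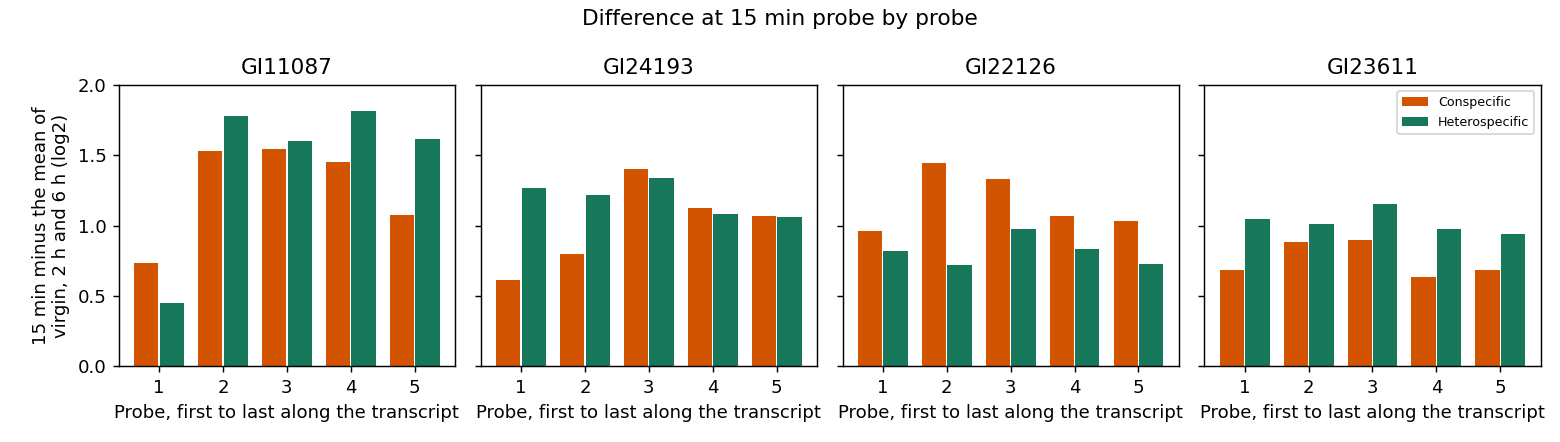
The log2 difference of the 15 min group from the mean of the virgin, 2 h and 6 h groups for each of the 5 probes of the 4 highest-ranked members, ordered along the transcript, orange after conspecific and green after heterospecific mating. All 40 bars are above 0, and the lowest is the first probe of GI11087 after heterospecific mating, at 0.45.

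The members were not a set of dim transcripts. Their mean level over the 14 arrays ran from 7.55 to 14.44 with a median of 9.79, against a median of 8.22 over all transcripts, and the median member was at the 64.4th percentile. Of the members, 24 were in the top 25% of all transcripts by level and 0 in the lowest 25%. On all 14 arrays 71 members (88.8%) were above background, where 49.3% of all transcripts were, and all 80 were above it on all 4 arrays at 15 min. The choice used intensities with no background correction and asked for a higher level at 15 min, which can favour transcripts above background. These levels and shares are therefore only a description of the chosen transcripts. No probe of any member was saturated on any array. The last probe of the median member lay at position 710.5 along the transcript, against 931 over all transcripts. Transcript lengths were not compared, so shorter transcripts and probe sets that reach less far cannot be told apart. The gain in level from a transcript's first to its last 2 probes had a median of 0.39 in the members and 0.38 overall.

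Whether the level of the members depended on the male was compared next. The choice never set one mating against the other, but it asked for a high 15 min level in both, which limits how far the matings can differ at that time. Differences were tested with limma over all 14519 transcripts with Benjamini-Hochberg adjustment. At 15 min, 0 of 80 members passed the threshold, where 0.0551% of all transcripts did, and 4 members (5%) had an unadjusted p under 0.05, against 3.28% of all transcripts. At 2 h the test called 0 members (0.0207% of all transcripts), with 8 at an unadjusted p under 0.05 (10%, against 7.76%). At 6 h it called 0 members (0.00689%), with 6 at an unadjusted p under 0.05 (7.5%, against 9.81%). Averaged over the 3 times it again called 0 members (0.186% of all transcripts), with 14 at an unadjusted p under 0.05 (17.5%, against 19.8%) and a lowest adjusted p of 0.173. The median SE of a difference at 1 time was 0.31, so differences of the size of the excess itself could have been missed.

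At 15 min the largest difference downward was that of GI12652 and the largest upward that of GI18128. GI12652 was at 10.03 and 8.75 after conspecific mating and at 8.21 and 8.43 after heterospecific mating, a difference of -1.07 (SE 0.45, limma adjusted p = 0.982). Both heterospecific arrays lay below both conspecific ones, but the conspecific arrays differed from each other by more than 1 log2 unit, and without replicate 1 of that group the difference was -0.43. GI18128 was higher after heterospecific mating, at 9.51 and 9.43 against 8.94 and 8.66, by 0.67 (SE 0.34, limma adjusted p = 0.982).

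When the 3 times were averaged, GI18210 had the lowest adjusted p of the members and GI11436 the largest difference, and both are named after their values were seen. GI18210 was at 11.55 and 11.84 at 15 min after conspecific and at 10.92 and 11.09 after heterospecific mating, and at 10.48 to 11.06 against 10.25 to 10.52 at the later times. Over the 3 times its heterospecific minus conspecific difference was -0.48 (SE 0.13, limma adjusted p = 0.173). GI11436 was at 9.87 to 9.93 on all 4 later heterospecific arrays and at 10.67 to 11.64 on the later conspecific ones, with virgins at 10.18 and 11.58. Its heterospecific later arrays were lower than every other array and close to each other, while its virgin arrays were far apart. The difference over the 3 times was -0.89 (SE 0.27, limma adjusted p = 0.191), so neither member passed the threshold.

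By sign, heterospecific levels were the lower ones in 65 of 80 members at 15 min (median -0.19), in 63 at 2 h (median -0.24) and in 41 at 6 h (median -0.01). Over all transcripts 47.7% were higher after heterospecific mating at 15 min, 49.8% at 2 h and 51.3% at 6 h, against 15, 17 and 39 of the 80 members. Single arrays moved these medians in both directions. At 15 min the median was -0.06, with 47 of 80 lower, without conspecific replicate 2, and -0.31 without conspecific replicate 1. At 2 h it was 0.03, with 37 lower, without conspecific replicate 1, and -0.45 without conspecific replicate 2. At 6 h it was -0.14 without conspecific replicate 1, 0.13 without conspecific replicate 2, -0.09 without heterospecific replicate 1 and 0.04 without heterospecific replicate 2. Over the 3 times it ran from -0.06 without conspecific 2 h replicate 1 to -0.22 without conspecific 2 h replicate 2. The sign at 2 h and at 6 h thus turned with the array left out.

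The date in the file headers moved with the mating. At 2 h both conspecific arrays bear day 2 and both heterospecific arrays day 1, so mating and day cannot be told apart within that time. At 15 min 1 heterospecific array bears day 2, as both conspecific ones do, and within day 2 the median difference was -0.25, with 54 of 80 lower. At 6 h 1 conspecific array bears day 1, as both heterospecific ones do, and within day 1 the median was -0.14, with 55 lower. With the day as a block in the fit the medians were -0.28 at 15 min, -0.34 at 2 h, -0.10 at 6 h and -0.27 over the 3 times, from -0.14. With the slope as a covariate the medians at 15 min and 2 h were -0.07 and -0.09. With median scaling in place of quantile normalization they were -0.07 and -0.05, while the median over all transcripts was -0.04 and -0.13. Relative to that shift the members were not lower at 2 h. The same scaling turned the median at 6 h from -0.01 to 0.30 and that over the 3 times from -0.14 to 0.08.

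**Figure D5:**
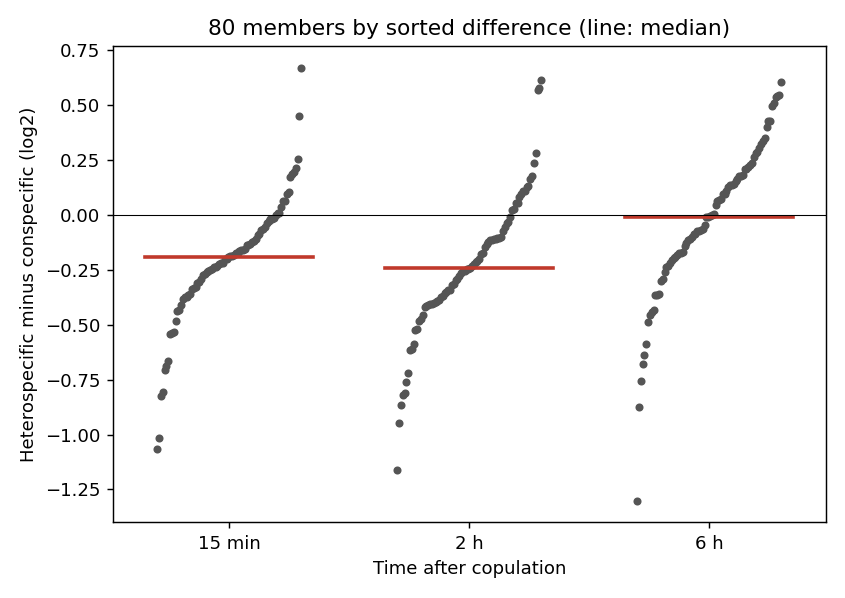
Heterospecific minus conspecific log2 level of the 80 members at 15 min, 2 h and 6 h, each point a member, sorted from lowest to highest within a time, with the median as a line. The medians are -0.19, -0.24 and -0.01, and no single member passed the test at any of the 3 times.

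The height of the peak over the later times is built from the values that chose the members, which were ranked by the smaller of the 2 matings' differences, so the choice itself limits how far it can differ between matings. The difference between 15 min and the mean of 2 h and 6 h, heterospecific minus conspecific, had a median of -0.07 over the members, with 47 of 80 negative. In the same fit 0 members were called (0.00689% of all transcripts), and 1 member (1.25%) had an unadjusted p under 0.05, against 3.12% of all transcripts, from which nothing is read about the members. That member, GI15259, singled out after its values were seen, dropped from 15 min to the later times by 1.38 less after heterospecific than after conspecific mating on the log2 scale. Its 2 conspecific 15 min arrays were above both heterospecific ones, and its 4 later heterospecific arrays were above all 4 later conspecific ones, though the nearest of them were both at 8.05.

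Transcripts named for male organs were read beside the members, because mated tracts can hold RNA from the male. The median of the 4 transcripts named Acp (accessory gland protein) was 6.65 to 6.91 on the virgin arrays, 6.79 to 7.11 at 15 min after conspecific mating and 8.01 to 8.59 after heterospecific mating, with 1 of 4, 1 of 4 and 2 to 3 of 4 above background. The 25 transcripts named Tes, a prefix taken here only from the probe names, had medians of 7.25 to 7.59, 7.33 to 7.45 and 7.33 to 7.59 in the same groups, with 9 to 13 above background on any array. The background limit lay at 7.45 to 7.74. The Acp medians after conspecific mating were thus below background at 15 min, when the members were at their highest, and lay at 6.68 to 6.78 later. After heterospecific mating the Acp medians, like the members, were highest at 15 min. They lay at 7.72 and 7.88 at 2 h and at 7.48 on both arrays at 6 h. The background limit was 7.47 on both 6 h arrays, so those medians were near it. On heterospecific 15 min replicate 2, 2 of 4 were above background, so that median lies between a transcript above background and 1 not above it. The part of male RNA in the members' levels was not tested.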

How the data were processed

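RNA of pooled lower reproductive tracts was amplified and hybridised to 1-colour NimbleGen arrays with Cy3 label, per the labels' protocols. The deposited files hold 1 perfect-match intensity for each of 71998 probes (NimbleScan 2.4.67, per the file headers). The submitters' processing notes name RMA, but 0 values of the deposited intensity table differed from the raw files, so it holds no normalized values. The genome build behind the probes is not given in the sources used here.

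Intensities were background-corrected (normexp, offset 50), quantile normalized, log2-transformed and reduced to 1 value per transcript by median polish (R 4.3.3, limma 3.58.1). The offset understates changes of dim transcripts. Members were chosen on log2 intensities without background correction, averaged over probes. Tests used limma with a mean for each of 7 groups fitted to the 14 arrays together (7 residual degrees of freedom), 2-sided, with Benjamini-Hochberg adjustment over 14519 transcripts and a threshold of 0.05. The number of arrays limits the precision. The fit and the choice were also run on simulated data to check the code. For the choice, the simulated spread was smaller than that of these arrays, so nothing is read from it about the members. The background limit of an array lies 2 SDs above the mode of its transcript levels, with the SD taken from levels under the mode. Leaving out an array kept the other values as normalized.

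Members, the tests and the rule for named members (ranks 1 to 8, 79 to 82, and the largest differences) were chosen with earlier results of these data known. Of the members' GI numbers, 0 were found in the RefSeq gene table used here, so the gene lists and marker lists planned for them were not analysed here, apart from the names Acp and Tes.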

Additional observations from a re-analysis of the deposited data

How the results depend on the processing

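For the mating differences at 15 min, 2 h and 6 h, over the 3 times and in the drop after 15 min, limma called 0 members under each alternative: offset 0 or no background correction, median scaling, cyclic loess, probe means, the processing of the choice, the deposited table, trend and robust eBayes, compared groups alone, the day as a block, a filter on dim transcripts, array weights, the slope as a covariate (added later), without the 4 dim arrays, and without each array. With the processing used above, these tests called only 0.00689% to 0.186% of all transcripts. So few calls make 0 members likely whatever the setting, and nothing is read about the members from these counts staying at 0. The shares of all transcripts called under the alternatives are not given here. Over the same members, the median excess ran from 0.547 to 0.78 after conspecific and from 0.487 to 0.647 after heterospecific mating. Its shifts between settings were within the spread between replicates (SD 0.18). The members were chosen for this excess on the same arrays, so a positive median follows from the choice. Nothing is read from it about the peak. With the replicate block the median excess was 0.711 and 0.546 and 0 members were called. Replicate numbers were not treated as pairs in the fit used above. Of 21 pairs of groups, 8 had a correlation of deviations over 0.1 (-0.63 to 0.51). With 2 arrays a group these values cannot show whether the samples were paired.

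Which transcripts were chosen depended more on the processing. Of the 80 members, 38 were chosen again with median scaling, 36 without the 4 dim arrays, and 32 to 72 without 1 array (under 54 without either virgin array, conspecific 15 min replicate 2, conspecific 2 h replicate 2 or heterospecific 15 min replicate 2). Normexp correction, cyclic loess and median polish kept 58 to 73. The cause was not tested. With 2 arrays a group the median SE of a mating difference at 1 time was 0.31, so members that pass no test are not shown to be alike.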

Other observations

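Reading every GI-numbered transcript by the state farthest from the others in both matings put the 15 min peak among other patterns. The 15 min state was the highest such state in 1877 of 14471 transcripts after conspecific mating, in 1327 after heterospecific mating and in 362 after both, and the lowest in 1805, 759 and 200. The 6 h state was the highest in 579 after both matings and the lowest in 598. A higher virgin state was found in 926 and a lower one in 613, and the virgin arrays are shared by both matings. The 2 h state was the highest in 249 and the lowest in 199. These counts use group means alone, with no threshold on size.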
